A study of Mus musculus with 45 samples.

Results

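The comparison described here asks which genes answered retinoic acid (RA) differently in homozygous and in heterozygous ΔPG mouse embryonic stem cells (ESCs). In ΔPG cells a PGK-puro cassette takes the place of *5430416N02Rik*, promoter and transcribed part together. This long noncoding RNA gene lies at chr5:100849861-100858535 (minus strand, mm9). The members were all 12 ΔPG RNA-seq samples of the 45 samples in the series, in 4 groups of 3: heterozygous (het) and homozygous (hom) cells kept as ESCs for 48 h with the vehicle DMSO (ES het, ES hom), and the same cells treated with 2 µM retinoic acid for 48 h (RA het, RA hom). All cells came from D3 ESCs of the 129 strain and carried the cassette on at least 1 allele, so the heterozygous cells were the reference and no wild-type cells enter. The ESC growth medium held serum and leukemia inhibitory factor. The paper does not state whether this factor was kept during the retinoic acid treatment. Whether the 3 replicates of a genotype came from 1 clone or several is not given in the sources used here, so differences between genotypes and between clones cannot be told apart. For each gene the interaction was computed as the response of hom cells (RA hom minus ES hom) minus the response of het cells (RA het minus ES het), on deposited regularized log (rlog) values, which are on the log2 scale. A negative interaction means a lower RA level in hom cells than the het response would give, whether the response was an induction or a repression.

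Retinoic acid is a vitamin A derivative that binds RAR and RXR receptors, which sit on response elements of genes such as *Cyp26a1*, *Rarb* and the anterior *Hox* genes. In ESCs it shuts down the pluripotency network and starts differentiation, and in serum cultures part of the cells take on features of extraembryonic endoderm, the lineage of the yolk sac. The enzymes of the CYP26 family degrade retinoic acid and are themselves induced by it, which makes them sensitive readouts of the signal.

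The labels of the samples held in the markers. The 8 ESC markers had a mean rlog value between 10.6 and 10.7 in the 6 ES samples and between 7.05 and 7.12 in the 6 RA samples. The 6 retinoic acid response markers had a mean between 5.09 and 5.30 in ES samples and between 7.80 and 7.93 in RA samples. Of the 9 fibroblast markers *Fap* had no varying row, and the mean of the other 8 lay between 2.86 and 2.99 in ES samples and between 4.71 and 4.84 in RA samples, much alike in both genotypes. The 5 neural markers had a mean of 3.14 to 3.19 in ES het and 2.87 to 2.95 in ES hom samples, and of 3.71 to 3.74 in RA het and 3.58 to 3.63 in RA hom samples. The 4 two-cell-like markers had a mean of 3.51 to 3.73 in ES het and 4.11 to 4.25 in ES hom samples, and of 5.72 to 5.94 in RA het and 6.44 to 6.55 in RA hom samples, so both gaps were present before treatment. Whether these differences had a part in the results below was not tested. The deleted gene itself had rlog values of 4.62, 4.58 and 4.59 in ES het, 2.23, 2.21 and 2.46 in ES hom, 4.24, 3.80 and 4.44 in RA het, and 2.66, 2.12 and 2.28 in RA hom. All 6 hom samples lay below all 6 het samples. The RA hom sample of replicate 1 stood apart: its profile of deviations from the gene means correlated with those of the other RA hom samples at r = 0.861 to 0.863, while those 2 correlated at 0.956 and every other pair of the same group at 0.91 or more. Values without it are given beside the results that it touches. The tables hold no read counts, so the depth of the samples is unknown.

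Much of the uncorrected interaction followed the base composition of the genes. Over the 11904 genes whose rlog values averaged 3 or more, the interaction correlated with exonic GC content at Spearman's rho 0.71, as a description across genes, which are not independent replicates. The trend sat in the ES samples. The difference between hom and het correlated with GC content at −0.74 in ES samples and at −0.01 in RA samples. Deviations from the gene mean correlated with GC content at 0.40 to 0.41 in the 3 ES het samples, at −0.33 to −0.28 in the 3 ES hom samples and at −0.12 to −0.06 in the 6 RA samples. In the tenth of genes lowest in GC content (median 39.9%) the median interaction was −0.59, and 60.1% of these genes were called lower. In the tenth highest in GC content (median 59.6%) the median was 0.47, and 43.1% were called higher. Whether this came from the cells or from the preparation of the libraries was not tested.

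**Figure D1:**
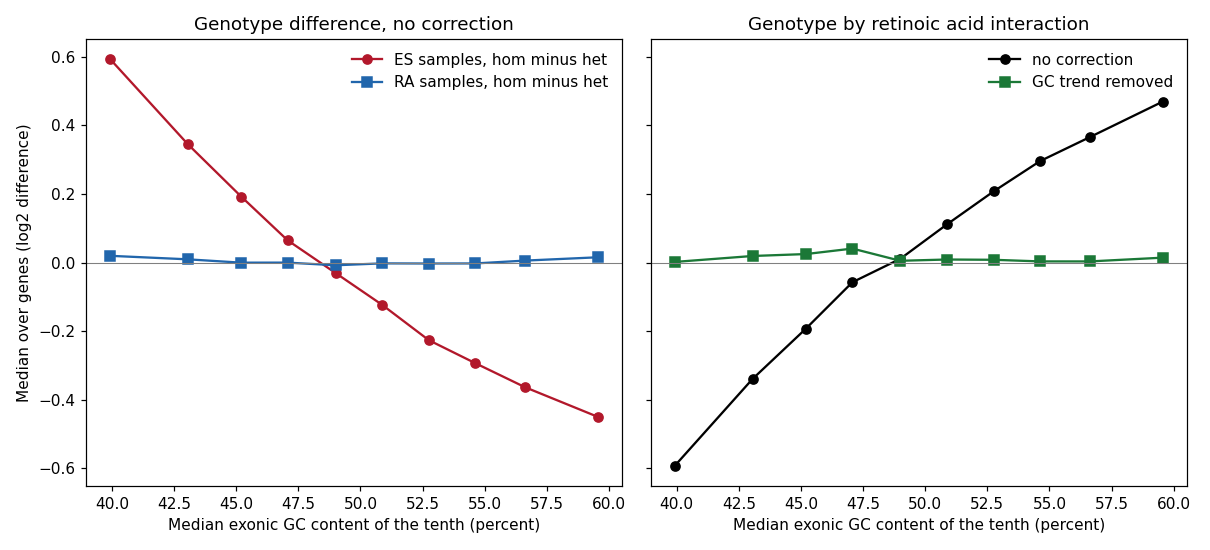
Median log2 difference over genes in 10 groups of equal size by exonic GC content (x axis, percent). The left panel shows hom minus het in ES and in RA samples, and the right panel the interaction before and after the GC trend of each sample was removed. The ES line falls from 0.59 to −0.45, the RA line stays within 0.02 of 0, and the corrected interaction stays within 0.05 of 0.

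A gene was called when its limma adjusted p was under 0.1 and its absolute log2 difference over 0.5. Without correction 1476 genes were called higher and 1580 lower, 6.72% and 7.19% of the 21979 genes that varied. After a curve of each sample's deviations against GC content was subtracted, 434 genes were called higher and 688 lower, 3.65% and 5.78% of 11904. Both fits called 238 genes higher and 407 lower, 2.00% and 3.42% of 11904, and the text below is about these 645 genes. Below, rlog values are printed without correction, and interactions with the GC trend removed unless stated. An interaction can therefore differ from what the printed values give. The correction is itself an assumption: where a real difference follows GC content, it is removed too. For comparison, the same interaction in ΔG cells, in which only the gene body is replaced, had 234 genes called higher and 196 lower by both fits out of 11997.

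The 645 genes were sorted by the responses of each genotype with the GC trend removed. These responses share samples with the interaction, so the sorting is a description. Blunted responses were the largest class with 305 genes, 160 of them induced and 145 repressed in het cells and changed less in hom cells. Responses of the same direction were larger in hom cells for 77 genes, 28 of them induced and 49 repressed. A further 143 genes responded in hom cells and not, by the limits of a call, in het cells, 16 genes moved in opposite directions, and 104 met none of these definitions. Over all genes the number of responses was similar, with 4701 genes called in het cells and 4659 in hom cells by both fits. Counts of list members that rose or fell are by the corrected fit alone. In that fit 24.12% of all genes rose and 21.16% fell in het cells, and 22.66% and 19.25% in hom cells.

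**Figure D2:**
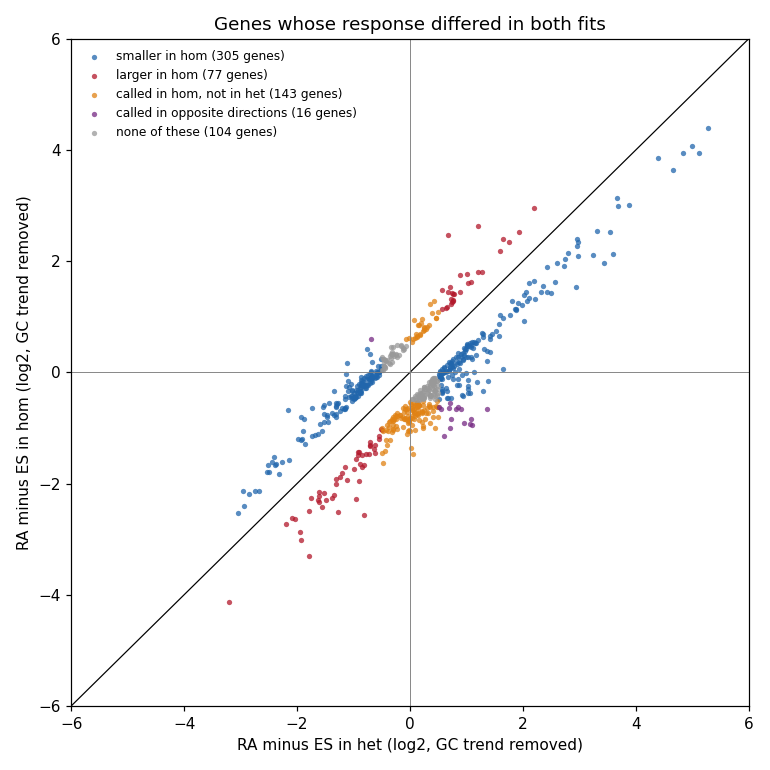
Response to retinoic acid in het cells (x axis) and in hom cells (y axis), log2 with the GC trend removed, for the 645 genes called in both fits; each point is a gene, coloured by class, and the diagonal marks equal responses. The 305 blunted genes have hom responses closer to 0 than their het responses, some of them across 0. The 77 genes with a larger response in hom cells lie beyond the diagonal.

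The interaction is also the genotype difference in RA samples minus that in ES samples, so each gene was assigned to the state whose called difference has the sign that contributes to the interaction. For 334 of the 645 genes this was the ES difference (243 of the genes called lower and 91 of those called higher), for 54 the RA difference (48 lower and 6 higher), for no gene both, and for 257 neither. Of the 305 blunted genes, 124 were assigned to the ES difference, 35 to the RA difference and 146 to neither. A called difference of the other sign was not counted: *Trp53*, low in hom cells in both states, is among the 334. Without the RA hom sample of replicate 2, or without that of replicate 3, the 6 became 13. Over all 11904 genes both fits called 545 genes between the genotypes in ES samples and 171 in RA samples.

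**Figure D3:**
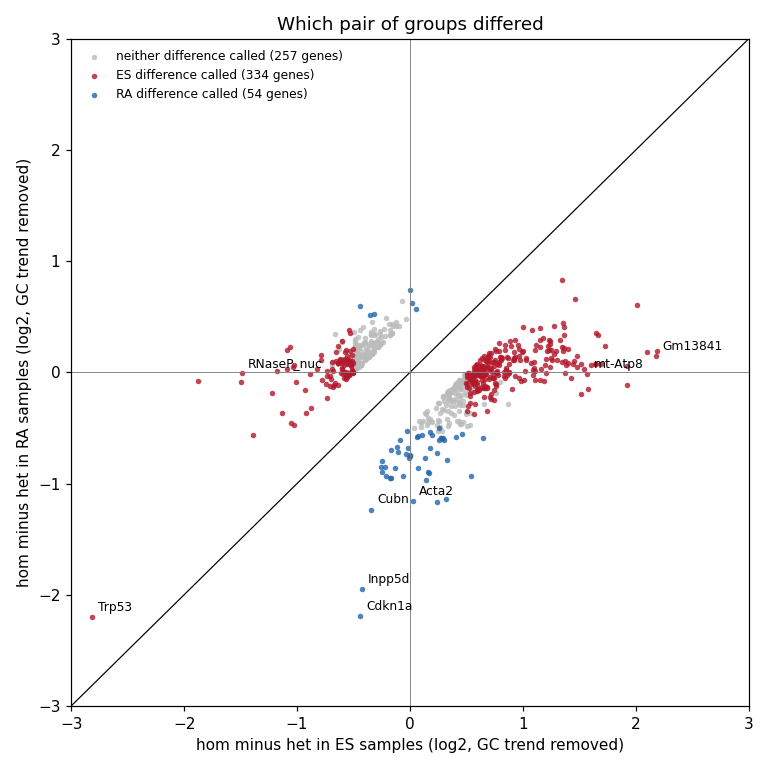
Hom minus het in ES samples (x axis) and in RA samples (y axis), log2 with the GC trend removed, for the 645 genes called in both fits. The 334 genes assigned to the ES difference spread along the x axis and the 54 assigned to the RA difference along the y axis, while *Trp53*, counted among the 334, was low in hom cells under both conditions.

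The 48 genes called lower that were assigned to the RA difference were picked out after their values were seen, and 15 of them fall in the lists described next. Of these 48 genes, 32 were inductions that were smaller in hom cells, 10 were repressions that went further, and 6 responded in hom cells alone. They were protein-coding genes in 48 of 48 cases, with a median exonic length of 3429 bases and a median GC content of 49.6%, close to the 3836 bases and 50.0% of the genes not called. Without the RA hom sample that stood apart, 39 of the 48 were still called in both fits. Of the 48, 22 were left where a mean rlog of 5 or more was required, so many of them were weakly expressed on average.

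Extraembryonic endoderm genes made up 6 of them. Of the 26 genes in that list 23 had a mean of at least 3, and both fits called 7 lower and none higher, 30.4% of the members beside 5.42% of all genes (both directions). The median interaction over the 23 was −0.29 before and −0.57 after the GC correction, beside 0.01 over all genes in both fits, and 22 of 23 values were negative after correction. The list is rich in GC (median 56.4%), and the fit with the correction called 15 lower, against 7 without it. In het cells 20 members rose with retinoic acid and in hom cells 18, beside 24.12% and 22.66% of all genes.

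*Cubn*, which encodes the endocytic receptor cubilin of visceral endoderm, had rlog values of 4.51, 4.68 and 4.95 in ES het and 4.50, 4.38 and 4.67 in ES hom. After retinoic acid it reached 9.68, 9.69 and 9.67 in het and 8.37, 8.48 and 8.48 in hom cells. The ES groups overlapped and the RA groups did not: the induction was 31.2-fold in het and 15.2-fold in hom cells on the rlog scale, with an interaction of −0.89 ± 0.13 (SE, GC trend removed, limma adjusted p = 3.84e-06). *Gata4*, a transcription factor of endoderm, stood at 2.86, 3.50 and 3.80 in ES het, 3.17, 3.24 and 3.57 in ES hom, 6.34, 6.41 and 6.35 in RA het and 5.27, 5.79 and 5.65 in RA hom. Its interaction was −1.12 ± 0.25 after the correction (limma adjusted p = 0.000856) and −0.73 before it. Without the RA hom sample of replicate 1 the uncorrected fit no longer called *Gata4*. *Foxq1*, a forkhead transcription factor gene, went from 2.64, 2.48 and 2.60 to 6.05, 5.91 and 5.87 in het cells. In hom cells it went from 2.51, 2.65 and 2.82 to 4.79, 5.18 and 5.07. The interaction was −1.48 ± 0.20 after the correction (limma adjusted p = 1.01e-06) and −1.02 before it.

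*Lama1* encodes the laminin chain of the first embryonic basement membranes. Its values were 9.25, 9.28 and 9.22 in ES het, 8.80, 8.86 and 8.81 in ES hom, 11.14, 11.19 and 11.18 in RA het and 10.24, 10.16 and 10.24 in RA hom, so that hom samples were lower in both states and the gap widened after retinoic acid (interaction −0.78 ± 0.04). *Ttr*, the gene of the thyroxine carrier transthyretin, reached 5.45, 5.34 and 5.46 in RA het and 4.18, 4.64 and 4.60 in RA hom (interaction −0.87 ± 0.21). The 6 ES values of *Ttr* equalled those of *Filip1l* to 3 decimals (2.29 to 2.59), so they lie where the rlog transformation places genes with next to no reads and the sizes of both responses are understated. The ES values of *Foxq1* lie near this range, so the sizes of its responses may be understated too. *Dab2*, an endocytic adaptor, and *Pdgfra*, a growth factor receptor of primitive endoderm, had interactions of −0.52 and −0.70. Without the ES hom sample of replicate 3 the interaction of *Dab2* was −0.27, with a limma adjusted p of 0.238, and leaving out ES het replicate 2, RA het replicate 1, RA het replicate 2 or RA hom replicate 2 alone also ended its call. *Gata6* and *Sox17*, further endoderm regulators, had corrected interactions of −0.82 and −0.53 but were not called by both fits, with uncorrected values of −0.46 for each. *Apoe*, the lipid carrier gene in the same list, had an interaction of 0.35 and was the member above 0.

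Genes of actin filaments and contractile cells were the other block among the 48. A list of 26 contractile and cytoskeletal genes was written after the data were seen, so its counts only describe. Of the 23 with a mean of at least 3, both fits called 9 lower and none higher. This was 39.1% of the members, beside 5.42% of all genes (both directions). The 9 were *Actc1*, *Acta2*, *Mybpc3*, *Myh11*, *Acta1*, *Tagln*, *Cnn1*, *Ankrd1* and *Filip1l*, each induced by retinoic acid in both genotypes and each less in hom cells. *Acta2*, smooth muscle actin, went from 4.05, 4.12 and 4.22 to 9.27, 9.27 and 9.22 in het cells. In hom cells it went from 4.09, 4.05 and 4.29 to 8.10, 8.01 and 8.16. The ES samples of the genotypes overlapped and the RA samples differed by more than 1 log2 unit, for a 34.9-fold and a 15.4-fold induction and an interaction of −1.18 ± 0.13 (limma adjusted p = 1.83e-08).

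*Actc1*, cardiac actin, stood at 2.34, 2.33 and 2.45 in ES het and 2.54, 2.34 and 2.65 in ES hom, and at 5.58, 5.70 and 5.71 in RA het and 4.56, 4.52 and 4.47 in RA hom. Its interaction was −1.46 ± 0.19, the largest of the list in size. The ES values of *Actc1* lie near those of *Ttr* and *Filip1l*, so the sizes of its responses may be understated too. *Tagln*, an actin-binding protein of smooth muscle, reached 9.41, 9.39 and 9.35 in RA het and 8.77, 8.83 and 8.75 in RA hom from ES values between 4.12 and 4.47 in both genotypes (interaction −0.87 ± 0.12). *Myh11*, smooth muscle myosin, and *Mybpc3*, a myosin-binding protein of heart muscle, had interactions of −1.08 and −1.11. The other 14 members were not called, muscle genes and broadly used genes alike: *Mylk* (myosin light chain kinase) had −0.05, *Smtn* (smoothelin) −0.03, *Myl7* (an atrial myosin light chain) −0.18 and *Tpm2* (a tropomyosin) −0.16, beside 0.08 for *Tpm1*, 0.03 for *Vcl* (vinculin), 0.24 for *Flna* (filamin) and −0.12 for *Srf*, a transcription factor of many contractile genes. Without the RA hom sample of replicate 1 the count fell from 9 to 6, since *Cnn1*, *Ankrd1* and *Filip1l* were no longer called in both fits, and where a mean rlog of 5 or more was required 2 of the 9 were left.

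Contractile gene promoters often carry a CArG box, the sequence that serum response factor binds. RefSeq promoter windows of 300 bases around the start (GRCm38.p6) were found for 7 of the 9 called genes, and 3 of the 7 held a CArG box, beside 8 of 19 tested members of the list (42.1%) and 1.63% of all 32851 windows. The pattern searched for is the same on both strands, although the letters of a single box need not be. The share was 42.9% in the called members. The windows of *Acta1* and *Actc1* show the box and that of *Acta2* shows a promoter of the same group without a full match, with the box in capitals; the box of *Acta1* starts 73 bases and that of *Actc1* 47 bases before the start site. A missing match says only that these letters are not in this window.
Acta1, chr8:123894726-123895025, minus strand: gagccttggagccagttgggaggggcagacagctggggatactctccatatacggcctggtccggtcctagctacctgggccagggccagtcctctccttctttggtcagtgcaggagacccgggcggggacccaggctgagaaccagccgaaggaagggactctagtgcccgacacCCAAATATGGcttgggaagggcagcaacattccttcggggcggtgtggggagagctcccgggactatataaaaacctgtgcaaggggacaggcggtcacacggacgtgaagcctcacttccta
Actc1, chr2:114052826-114053125, minus strand: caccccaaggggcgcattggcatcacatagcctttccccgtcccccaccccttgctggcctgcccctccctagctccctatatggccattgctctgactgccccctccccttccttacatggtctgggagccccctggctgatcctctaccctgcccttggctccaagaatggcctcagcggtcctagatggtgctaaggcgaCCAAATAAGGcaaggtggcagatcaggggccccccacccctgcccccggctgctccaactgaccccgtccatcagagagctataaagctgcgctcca
Acta2, chr19:34255324-34255623, minus strand: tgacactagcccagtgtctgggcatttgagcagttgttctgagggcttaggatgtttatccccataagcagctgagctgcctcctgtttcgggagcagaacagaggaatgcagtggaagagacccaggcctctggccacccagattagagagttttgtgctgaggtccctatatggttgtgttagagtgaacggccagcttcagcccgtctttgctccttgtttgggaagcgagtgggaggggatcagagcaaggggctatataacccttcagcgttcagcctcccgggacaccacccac

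**Figure D4:**
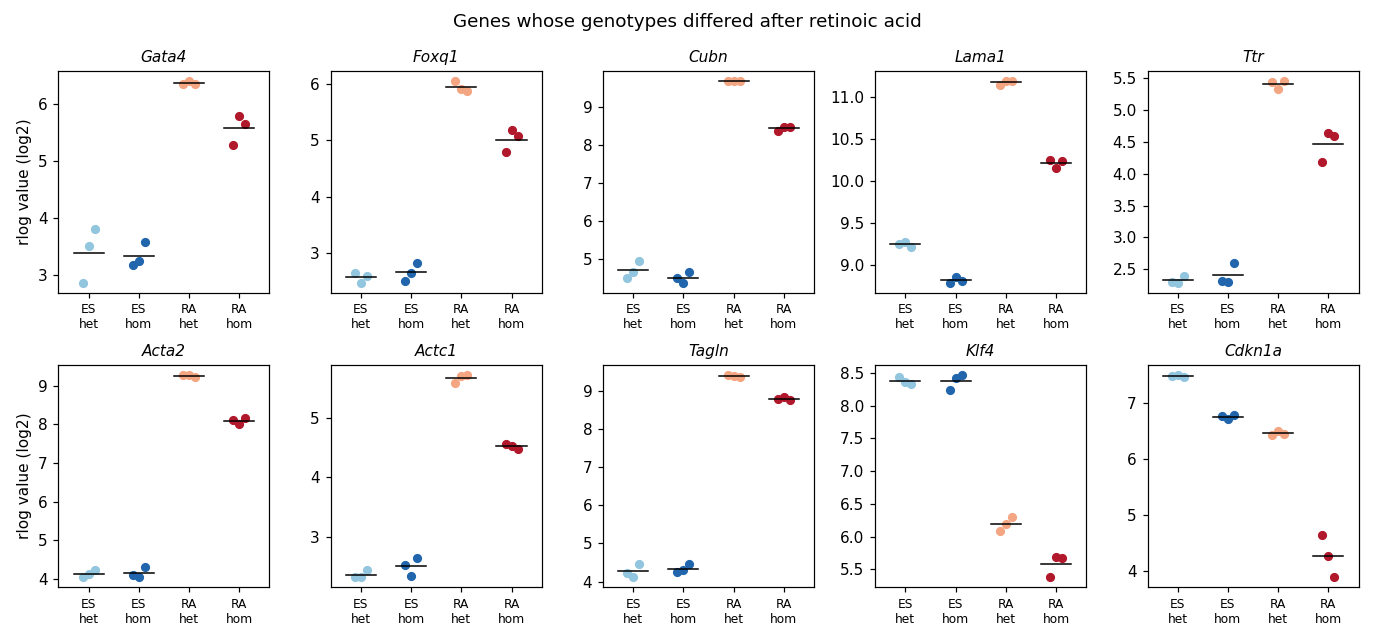
Rlog values (y axis, log2; the axes do not start at 0 and differ between panels) of 10 genes in each of the 12 samples; points are samples and bars group means. In each panel the 3 RA hom samples lie below the 3 RA het samples, and the ES samples of the genotypes overlap or differ less than the RA samples do.

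Repressions that went further in hom cells included the largest interaction outside the ES samples, that of *Cdkn1a*. This gene (chr17:29227924-29237667, mm9) encodes the cyclin-dependent kinase inhibitor p21 and is a classical target of the tumour suppressor p53. Its values were 7.48, 7.50 and 7.47 in ES het, 6.77, 6.71 and 6.79 in ES hom, 6.42, 6.50 and 6.46 in RA het and 4.64, 4.26 and 3.89 in RA hom. The level in RA hom cells was below every other sample, and the interaction was −1.75 ± 0.17 (limma adjusted p = 2.39e-09) and −1.94 without the RA hom sample of replicate 1. *Inpp5d*, the gene of the lipid phosphatase SHIP1, moved in parallel with 8.23, 8.30 and 8.21 in ES het, 7.59, 7.70 and 7.68 in ES hom, 6.31, 6.21 and 6.48 in RA het and 4.68, 4.17 and 4.28 in RA hom (interaction −1.52 ± 0.14). *Mt1*, a metal-binding metallothionein, and *Sulf2*, an extracellular sulfatase, had interactions of −1.24 and −0.85. *Fst*, the activin antagonist follistatin, hardly moved in het cells (3.82, 3.80 and 3.81 in ES, 3.94, 3.89 and 3.74 after RA) but went from 4.25, 4.00 and 4.02 to 2.96, 2.93 and 2.97 in hom cells.

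*Trp53*, which encodes p53, was itself low in hom cells in both states. It had values of 7.15, 6.95 and 7.05 in ES het, 3.83, 4.00 and 4.24 in ES hom, 6.06, 6.19 and 5.87 in RA het and 4.06, 3.56 and 3.88 in RA hom. The genotype gap was thus 2.82 log2 units in ES and 2.20 in RA samples with the GC trend removed, and the interaction of 0.62 ± 0.19 (limma adjusted p = 0.0174) came with a decline of 0.85 in het cells and of 0.23 in hom cells, the latter not called. Without the RA hom sample of replicate 1 it was 0.50, and after quantile normalization 0.28 (limma adjusted p = 0.331), and in neither case was it called. Of 26 measured genes in the list of p53 and its targets, 11 were called lower in ES hom and 17 lower in RA hom cells than in het cells, and none higher in either, beside 1.61% and 0.99% of all genes. The interaction was called for 4 of the 26, 15.4% beside 5.42% of all genes: *Trp53* higher, and *Cdkn1a*, *Sulf2* and *Perp* lower. *Eda2r*, a p53-induced receptor of the tumour necrosis factor family, stood at 5.70, 5.69 and 5.76 in ES het and 6.87, 6.85 and 6.85 in RA het, and at 3.06, 3.15 and 3.24 in ES hom and 3.54, 3.39 and 3.30 in RA hom. Its interaction was −0.88 before and −0.26 after the correction (limma adjusted p = 0.281), so that it was called in the uncorrected fit alone. After quantile normalization the corrected value was −0.65 (limma adjusted p = 0.00523) and was called. Its GC content is 39.3%.

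Most genes of the pluripotency network fell in both genotypes. Of 31 measured members 25 fell in het and 27 in hom cells, beside 21.16% and 19.25% of all genes. The median interaction was 0.00 with the GC trend removed, and 2 were called in both fits, 6.45% beside 5.42% of all genes and so near the background. *Nanog* went from 10.83, 10.85 and 10.84 to 6.53, 6.69 and 6.55 in het cells and from 10.96, 10.95 and 10.92 to 6.67, 6.44 and 6.52 in hom cells. *Pou5f1* had an interaction of 0.38 before and 0.09 after the GC correction. The called members were the Krüppel-like factors *Klf4* and *Klf5*. *Klf4* fell from 8.44, 8.37 and 8.32 to 6.09, 6.20 and 6.30 in het cells. In hom cells it fell from 8.24, 8.42 and 8.46 to 5.39, 5.69 and 5.68. Its interaction was −0.91 ± 0.11 after the correction (limma adjusted p = 3.65e-07) and −0.61 before it. *Klf5* had an interaction of −1.15 ± 0.11, with a corrected difference of 0.86 in ES and −0.28 in RA samples. *Klf2*, of the same family, had −0.63 after and −0.14 before the correction and was called in the corrected fit alone.

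The retinoic acid signal itself was read out much alike. *Cyp26a1* reached 9.40, 9.38 and 9.41 in RA het and 9.47, 9.44 and 9.42 in RA hom cells from ES values between 4.56 and 5.28, with an interaction of −0.28 ± 0.16 (adjusted p = 0.191). *Rarb* (a retinoic acid receptor) and *Stra6* (the retinol transporter) had interactions of −0.20 and −0.13, neither of them called. Of 18 measured retinoid pathway genes 1 was called higher and 1 lower in both fits, 11.1% beside 5.42% of all genes. The lower one was *Cyp26b1*, the sister enzyme, which reached 8.65, 8.58 and 8.54 in RA het and 7.97, 8.22 and 8.17 in RA hom (interaction −0.92 ± 0.15, limma adjusted p = 2.37e-05, not called in both fits without the RA hom sample of replicate 1). None of 25 measured *Hox* genes and their regulators was called in both fits, although 24 rose in each genotype. Over all genes 24.12% rose in het and 22.66% in hom cells. *Hoxb1* had values of 5.62, 5.48 and 5.43 in RA het and 6.03, 6.06 and 6.16 in RA hom, and its interaction fell from 0.43 to 0.19 with the correction. *Pax6*, a neural regulator, and *T*, the mesoderm factor brachyury, had interactions of 0.03 and −0.41 and were not called.

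The ES samples carried the larger group, and the part of it called lower was rich in short genes. The 243 genes called lower through the ES samples had a median exonic length of 1368 bases, against 3836 among genes not called, and 42.0% of them were shorter than 1000 bases, against 4.05%. Of the 243, 189 were protein-coding genes, 35 pseudogenes and 14 small noncoding RNAs. The 91 genes called higher through the ES samples had a median length of 4045 bases, and 85 of them were protein-coding. Of all 407 genes called lower, 113 were shorter than 1000 bases, and of all 238 called higher 17. By length, 25.5% of genes under 500 bases were called lower by both fits, 17.2% of those from 500 to 1000 bases, 6.26% from 1000 to 2000, 2.56% from 2000 to 4000 and 1.52% of longer genes. Removing a length trend in addition to the GC trend left 341 of the 407 genes called lower and 200 of the 238 called higher.

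Of the 12 lowest interactions selected by rule, 11 were those of the predicted genes and pseudogenes *Gm11808*, *Gm13841*, *Rpl14-ps1*, *Gm15500*, *Gm14456*, *Gm9385* and *Gm15450*, the histone genes *Hist1h4n* and *Hist1h4c*, the small nucleolar RNA *SNORA12* and the mitochondrial *mt-Atp8*. *Cdkn1a* was the remaining one. Pseudogenes share sequence with their parent genes, so their reads may belong to the parents. *Gm13841* had 5.24, 5.11 and 5.51 in ES het, 7.11, 7.22 and 7.05 in ES hom, 6.50, 6.27 and 6.49 in RA het and 6.53, 6.58 and 6.59 in RA hom, an interaction of −2.03 ± 0.14. In RA samples the genotypes were close, and the ES hom samples stood above all others while the ES het samples stood below them. *SNORA12* showed the same order with 4.79, 4.74 and 4.95, then 6.51, 6.58 and 6.62, then 5.52, 5.68 and 5.47, then 5.44, 5.34 and 5.43 in the same order of groups. *Hist1h4c* was uneven among ES het samples (8.99, 7.83 and 7.85) and stood at 9.24, 9.33 and 9.28 in ES hom and between 8.02 and 8.77 in the 6 RA samples, with an interaction of −1.70 ± 0.25.

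The transcripts below show how far apart in base composition such genes were. Their sequences are given in mm9, with every G and C in capitals: the whole of *mt-Atp8* (31.9% GC), the whole of *SNORA12* (45.9% GC) and the first 300 bases of the coding sequence of *Hist1h4c* (64.0% GC). All 3 were called lower, with interactions of −1.58, −1.73 and −1.70 after the GC trend was removed. They share a short length (204 and 146 bases, and 309 bases of coding sequence) and differ in composition.
mt-Atp8, chrM:7766-7969, plus strand: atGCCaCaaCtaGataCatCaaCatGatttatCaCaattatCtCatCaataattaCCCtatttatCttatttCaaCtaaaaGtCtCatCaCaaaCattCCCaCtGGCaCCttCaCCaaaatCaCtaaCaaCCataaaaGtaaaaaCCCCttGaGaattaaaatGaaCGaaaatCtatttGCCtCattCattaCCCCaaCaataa
SNORA12, chr19:44188469-44188614, minus strand: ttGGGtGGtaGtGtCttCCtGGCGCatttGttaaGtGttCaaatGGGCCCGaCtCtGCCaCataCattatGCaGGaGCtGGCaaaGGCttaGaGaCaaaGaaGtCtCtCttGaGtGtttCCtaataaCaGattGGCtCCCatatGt
Hist1h4c, chr13:23790019-23790318, minus strand: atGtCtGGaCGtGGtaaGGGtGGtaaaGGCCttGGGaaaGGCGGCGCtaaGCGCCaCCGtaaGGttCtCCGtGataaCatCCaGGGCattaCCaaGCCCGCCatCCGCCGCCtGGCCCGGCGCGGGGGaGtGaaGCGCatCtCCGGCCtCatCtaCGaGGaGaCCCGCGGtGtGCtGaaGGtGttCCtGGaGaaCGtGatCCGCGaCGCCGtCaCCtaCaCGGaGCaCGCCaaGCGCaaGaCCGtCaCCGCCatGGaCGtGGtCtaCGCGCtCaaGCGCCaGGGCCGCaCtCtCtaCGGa

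The mitochondrially encoded genes of the respiratory chain followed this pattern as a group, and nuclear genes of the chain and ribosomal protein genes in part. Among 11 measured protein-coding genes of the mitochondrial genome, which encode respiratory chain subunits, 10 were called lower in both fits and all 10 had a called ES difference. Their median interaction was −1.90 before and −1.12 after the correction. *mt-Co3*, a cytochrome c oxidase subunit, had 12.35, 12.32 and 12.33 in ES het, 14.42, 14.37 and 14.49 in ES hom, 13.61, 13.58 and 13.64 in RA het and 13.62, 13.58 and 13.56 in RA hom. It therefore rose with retinoic acid in het cells and fell in hom cells, to the same level. The remaining member, *mt-Nd6*, which alone is encoded on the other strand, had an interaction of −1.02 before the correction and −0.01 after it. Without correction all 12 mitochondrial genes that varied were called lower. Of 75 nuclear genes of the respiratory chain (median length 1287 bases) 11 were called lower and 1, *Ndufb3*, higher, with a median interaction of −0.15. Of 75 cytosolic ribosomal protein genes (median length 1434 bases) 16 were called lower and none higher, with a median interaction of −0.28. Over all genes 3.42% were called lower, and 6.26% of those from 1000 to 2000 bases. *Rps29* had 10.07, 10.14 and 10.16 in ES het and 11.38, 11.35 and 11.28 in ES hom, and 10.16, 10.11 and 10.10 and 10.47, 10.54 and 10.58 after retinoic acid, so that the ribosomal gene fell in hom cells and held its level in het cells. Of the 75 genes 41 fell in het cells and 71 in hom cells, beside 21.16% and 19.25% of all genes. In RA samples the list's median difference, hom minus het, was 0.24, and 1 member was called.

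Histone genes went both ways. Of 59 measured genes of the histone clusters 7 were called lower and 4 higher in both fits. Together this was 18.6% of the list, beside 5.42% of all genes. The median exonic length of the list was 520 bases, and 17.2% of all genes from 500 to 1000 bases were called lower. The median interaction changed sign, from 0.13 to −0.18, when the GC trend was removed. *Hist1h1d*, a linker histone gene, stood at 12.33, 12.37 and 12.36 in ES het and 11.73, 11.76 and 11.72 in ES hom, with 10.91 to 11.01 in all 6 RA samples (interaction 1.08 ± 0.03). *Hist1h2bp* had 0.94. Most replication-dependent histone transcripts lack a poly(A) tail, and the libraries were made from ribosomal RNA-depleted total RNA.

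Among the 12 highest interactions selected by rule were *Gm16869*, *RNaseP_nuc*, *Gm10800*, *Pigy*, *Snord17*, *SNORA46*, *Hist1h1d*, *Ccdc85b*, *U3*, *Gm17646* and *Hist1h2bp*. They included *RNaseP_nuc*, the RNA of the enzyme that trims transfer RNAs, and the small nucleolar RNAs *Snord17*, *SNORA46* and *U3*, of which *RNaseP_nuc* and *U3* pool several loci under a shared name. In all, 4 of the 238 genes called higher were small RNAs, against 15 of the 407 called lower. *RNaseP_nuc* had 14.21 in each ES het sample, 12.54, 12.57 and 12.53 in ES hom, 11.91, 11.96 and 11.91 in RA het and 11.89, 11.91 and 11.93 in RA hom. Both genotypes ended at the same level from different starting levels, an interaction of 1.48 ± 0.02. *Snord17* did likewise, with 9.14, 9.15 and 9.04 in ES het, 7.92, 7.91 and 7.79 in ES hom and 6.90 to 7.29 in the 6 RA samples. *Gm16869* was called higher by 1.80 with the GC trend removed, a larger size than its uncorrected values give. It was induced from 6.95, 6.78 and 6.80 in ES het and from 5.67, 5.79 and 6.09 in ES hom to 7.98 to 8.10 in RA samples. *Pigy*, of glycolipid anchor synthesis, had an interaction of 1.29. *Ccdc85b* differed in RA samples too, with 4.50, 4.59 and 4.02 in het and 5.36, 4.72 and 4.81 in hom cells.

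**Figure D5:**
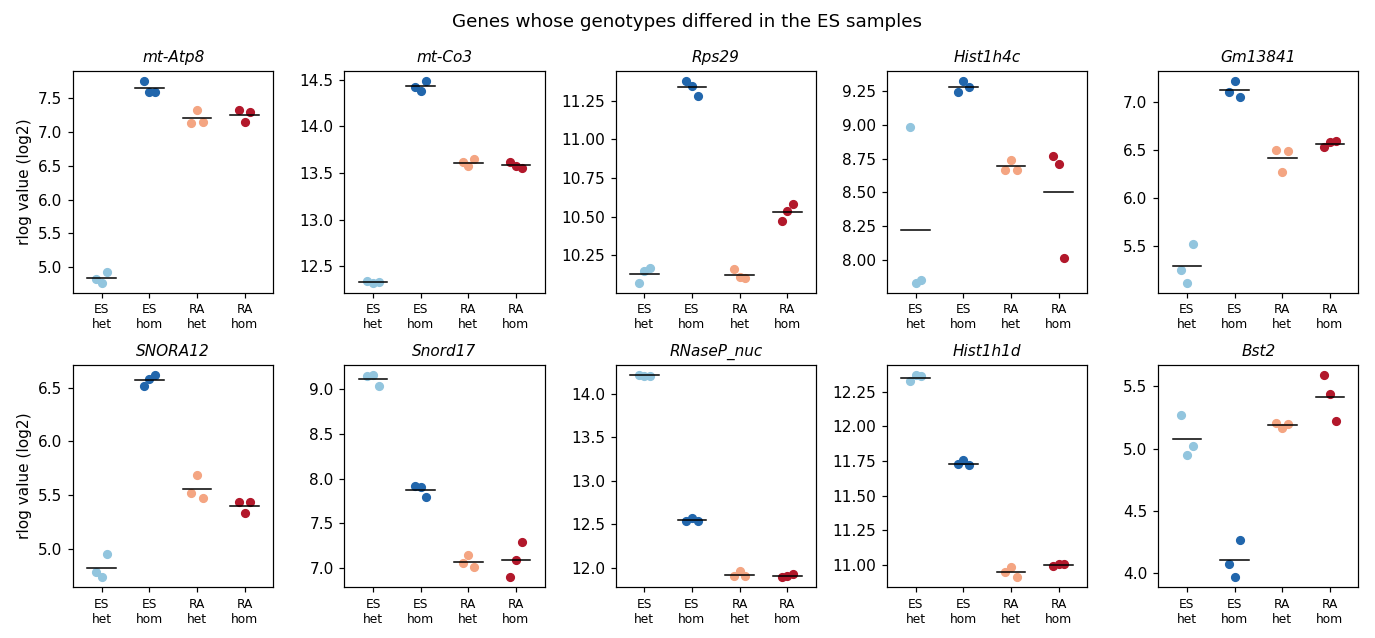
Rlog values (y axis, log2; the axes do not start at 0 and differ between panels) of 10 genes in each of the 12 samples; points are samples and bars group means. In the panels *mt-Atp8* to *SNORA12* the ES hom samples lie above the ES het samples, with 1 ES het sample of *Hist1h4c* apart from the other 2, and in the panels *Snord17* to *Bst2* below them.

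Smaller groups and single genes were also called in both fits, where 5.42% of all genes were called in either direction. Of 16 measured interferon-stimulated genes, a list written after the data were seen, 5 were called higher, against 2.00% of all genes, and none lower (*Trim21*, *Bst2*, *Oas1a*, *Parp14* and *Ube2l6*, with interactions between 0.76 and 0.87). *Bst2*, which encodes the antiviral protein tetherin, had 5.27, 4.95 and 5.02 in ES het, 4.07, 3.97 and 4.27 in ES hom, 5.20, 5.17 and 5.19 in RA het and 5.59, 5.44 and 5.22 in RA hom, so its rise was called in hom cells alone. None of the 5 was left where a mean rlog of 5 or more was required. *Fgf1*, a growth factor gene, was induced further in hom cells, to 5.15, 5.19 and 5.08 against 4.40, 4.42 and 4.39. *Cdc25b*, a phosphatase that promotes entry into mitosis, rose in hom cells and was not called in het cells (interaction 0.51 ± 0.11, a size that fell to between 0.47 and 0.50, under the limit, without ES het replicate 3, ES hom replicate 1, RA het replicate 2 or RA hom replicate 2). *Notum*, a Wnt antagonist, and *Zic5*, a neural transcription factor, had interactions of 0.71 and −0.68. They were 1 of 16 measured BMP and Wnt targets (6.25%) and 1 of 11 neural ectoderm genes (9.09%). *Notum* was not called in both fits without the RA hom sample of replicate 1 or the RA het sample of replicate 2. *Col3a1*, a fibrillar collagen gene and a fibroblast marker, had an interaction of −0.55 ± 0.19, which was −0.45 without ES het replicate 1 and −0.34 without ES hom replicate 3, and was called in neither case. *Zfp936* and *Zfp951* were the 2 of 29 zinc finger genes *Zfp900* to *Zfp999* called in both fits, 6.90% of the list and so near the share of all genes. Without correction 21 of that AT-rich family (median GC content 38.5%) had been called lower, and their median interaction went from −0.65 to −0.03. No gene was called in both fits among 6 primitive streak, 14 replication licensing, 15 FGF and ERK feedback, 20 glycolysis and hypoxia, 14 integrated stress response and 11 two-cell-like state genes. In the two-cell-like list 11 of 11 genes rose in each genotype, beside 24.12% of all genes in het and 22.66% in hom cells. Of the 11, 3 were called higher in ES hom than in ES het cells and 5 higher in RA hom than in RA het cells, beside 2.97% and 0.45% of all genes. Among 11 basement membrane genes *Lama1* was called.

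The neighbours of the deleted locus responded alike or nearly so. *Lin54* had an interaction of 0.09 with the GC trend removed (−0.35 before) and *Sec31a* one of −0.37, under the limit of size in both fits. *5430416N02Rik* itself had 0.58 after and 0.49 before the correction and was not called in both. *Mid1*, an X-linked ubiquitin ligase gene, was lower in hom cells in ES and RA samples (8.49, 8.45 and 8.48 against 7.58, 7.59 and 7.60, then 8.51, 8.50 and 8.55 against 7.89, 7.99 and 7.92), and its interaction of 0.23 was under the limit of size.

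Set beside the same contrast in ΔG cells, which come from a separately normalized table, few of the genes recurred. Among 11766 genes measured in both, 11 genes were called lower in both lines (2.73% of the ΔPG and 5.79% of the ΔG calls), 6 higher in both (2.56% and 2.59%) and 19 in opposite directions. Over all genes of each line, both fits called 1.63% lower and 1.95% higher in ΔG cells, and 3.42% and 2.00% in ΔPG cells. The shares called higher in both lines were thus near those over all genes. The 11 called lower in both included the endoderm genes *Cubn*, *Lama1*, *Dab2* and *Pdgfra*, with ΔG interactions of −1.17, −0.63, −0.94 and −0.67. Of the 54 genes that differed in RA samples, 51 could be compared: 27 had the same sign in ΔG, 6 were called in the same direction and 2 in the opposite direction. In ΔG cells *Cdkn1a* had an interaction of −0.10, *Klf4* −0.20, *Acta2* −0.00 and *Tagln* 0.02, all under the limit of size. No test of the difference between the lines was made.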

How the data were processed

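RNA was sequenced as paired reads from total RNA depleted of ribosomal RNA (TruSeq Stranded). Per the labels, the submitters' notes name TopHat2 2.1.0, Picard, HTSeq 0.6.0 and DESeq2 1.14.1 and the build mm9; the deposited log2 values are rlog values that the authors made with DESeq2 from read counts, which are not used here. The transformation draws low counts together and so understates changes of weakly expressed genes. The biological replicates are those the study states; whether they were separate cultures of 1 clone is not given in the sources used here.

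Of 33924 genes, 21979 varied. Group means of all 12 samples were fitted with limma 3.58.1 (R 4.3.3; eBayes with a variance trend), with Benjamini-Hochberg adjustment over all genes of the fit. For the corrected fit, the values of a sample, centred gene by gene, were smoothed over exonic GC content by lowess (span 0.3; GENCODE vM1 on mm9) and the curve was subtracted, over 11904 genes averaging an rlog of 3 or more. The procedure was tested on simulated data. Contrasts within a genotype or a state came from the same fits.

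Named genes were the deleted gene, its neighbours, *Mid1*, *Trp53* and *Eda2r*; the 12 highest and 12 lowest corrected interactions among genes called in both fits whose responses did not overlap between genotypes; and called members of fixed lists with 13 marker genes (*Sox1* has no varying row). Genes that differed in RA samples, and the contractile and interferon lists, were chosen after their values were seen. Members and lists were chosen with earlier results of these data known. Alternatives covered limits, filters, scalings, trend curves, the replicate number as a block and each sample left out. The 4C files were not used. Some genes that the rule selects are not reported here.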

Additional observations from a re-analysis of the deposited data

Results flagged for a closer look

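The results here differed between the genotypes by the test of the interaction itself, with the GC trend removed (limma, adjusted p under 0.1 and an absolute log2 value over 0.5 in both fits). The interactions below 0 were −2.04 for *Gm11808*, −2.03 for *Gm13841*, −1.99 for *Rpl14-ps1*, −1.92 for *Gm15500*, −1.87 for *Hist1h4n*, −1.75 for *Cdkn1a*, −1.73 for *SNORA12*, −1.70 for *Hist1h4c*, −1.61 for *Gm14456*, −1.58 for *mt-Atp8*, −1.58 for *Gm9385* and −1.56 for *Gm15450*. The interactions above 0 were 1.80 for *Gm16869*, 1.48 for *RNaseP_nuc*, 1.41 for *Gm10800*, 1.29 for *Pigy*, 1.12 for *Snord17*, 1.09 for *SNORA46*, 1.08 for *Hist1h1d*, 1.04 for *Ccdc85b*, 1.04 for *U3*, 1.01 for *Gm17646*, 0.94 for *Hist1h2bp* and 0.62 for *Trp53*. Dixon's test for a single sample far from its group was not run on these groups of 3.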

How the results depend on the processing

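By the corrected fit alone, no call among the 128 named genes changed direction under the 25 alternatives. Of 3153 values, 91 lost a call in that fit and 5 gained one. Losses in the uncorrected fit, such as that of *Gata4* without the RA hom sample of replicate 1, are not among the 91. With an adjusted p under 0.05 and a fold over 1.5, the calls were 933 higher without correction, 215 higher and 455 lower with it, and 114 higher in both fits. With no limit on size they were 3342 higher and 3045 lower, 1980 and 1855, and 1315 and 1238 in the same order of fits. A mean rlog of at least 5 left 245 higher and 456 lower with correction and 138 higher in both fits, since fewer genes were tested. With a length trend in place of the GC trend, 1478 higher and 1461 lower were called, and 1307 and 1356 in both fits, close to the counts without correction. Leaving out each sample gave 1423 to 1538 higher and 1497 to 1616 lower without correction, 409 to 481 and 652 to 729 with it, and 220 to 276 and 393 to 432 in both fits.

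Same-numbered samples deviated together little (r = −0.03 to 0.09 over 18 pairs), beside −0.07 to 0.04 over 36 pairs with different numbers. Correlations of this size do not settle whether samples of the same number were handled together. With the replicate block 238 genes were called higher and 410 lower in both fits, and no named gene changed its call in the corrected fit.

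The other limits are the unknown number of clones per genotype, values that give no depth, and a GC trend that was strong in the ES samples, whose source was not tested.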
